A study of Mus musculus with 6 samples.

Results

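The 10 genes described here carry iron into cells, store it, release it from haem and export it: Tfrc, Trf, Fth1, Ftl1, Slc40a1, Slc11a1, Slc11a2, Hmox1, Cp and Steap3. They were chosen by name, and all 10 were found among the 25721 genes of the deposited comparison table. Transcripts were sequenced from tibial cortical bone of Wildtype mice, after the bone ends had been cut away and the marrow flushed out. The mice were fed either a control diet or one with adenine at 0.2% w/w, begun at 8 weeks of age and kept up for 4 weeks, and bones were taken at 12 weeks. Dietary adenine damages the kidney and serves to model its chronic failure. There were 3 libraries per diet, called control 1 to 3 and adenine 1 to 3. Whether the libraries stem from different mice is not in the labels, so p-values here measure only the spread between samples, which may be technical.

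Cells take up iron as transferrin, the plasma carrier encoded by Trf, bound to the transferrin receptor encoded by Tfrc. In the endosome the reductase Steap3 turns ferric into ferrous iron, and the proton-coupled carrier Slc11a2 (DMT1) moves it to the cytosol, while its relative Slc11a1 (NRAMP1) works in the phagosomes of macrophages. Surplus iron is kept in ferritin, a shell of heavy (Fth1) and light (Ftl1) chains, of which the heavy chain oxidises the metal. Ferroportin (Slc40a1) is the known iron exporter, ceruloplasmin (Cp) oxidises iron as it leaves, and haem oxygenase 1 (Hmox1) frees iron from haem. In bone, red cell precursors of the marrow are heavy users of iron and macrophages recycle it from old red cells.

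Several of these transcripts carry iron responsive elements, hairpins that the iron regulatory proteins Aco1 and Ireb2 bind when iron is scarce. Bound at the start of a transcript they block translation, and bound near its end they slow its decay. The hairpins are shown because they divide the members into those whose RNA level such binding is known to change and those whose translation it is known to change. A search of GENCODE M21 transcripts (GRCm38) on the transcript strand for the loop CAGTGN between stems of 5 bases, with 5 of 5 pairs in the upper stem, an unpaired C on its 5′ side and at least 4 of 5 pairs in the lower stem (G with T counted as a pair), found 7 hairpins of 27 bases in 4 of the 10 members. They are printed 5′ to 3′, with the loop in capitals.
Tfrc, 3′ UTR, chr16:32631220-32631246, plus strand: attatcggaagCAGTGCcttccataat
Tfrc, 3′ UTR, chr16:32631599-32631625, plus strand: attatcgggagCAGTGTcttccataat
Tfrc, 3′ UTR, chr16:32631664-32631690, plus strand: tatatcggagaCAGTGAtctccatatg
Tfrc, 3′ UTR, chr16:32631711-32631737, plus strand: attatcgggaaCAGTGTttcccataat
Fth1, 5′ UTR, chr19:9982733-9982759, plus strand: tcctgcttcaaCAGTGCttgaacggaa
Ftl1, 5′ UTR, chr7:45459780-45459806, minus strand: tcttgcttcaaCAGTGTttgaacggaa
Slc40a1, 5′ UTR, chr1:45925466-45925492, minus strand: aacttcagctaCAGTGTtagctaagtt
The Fth1 and Ftl1 hairpins differed at 2 of 27 bases. Of 21901 protein-coding genes, searched by their longest transcript, 28 held such a hairpin (0.128%), whereas the letters CAGTG alone stood in 93.6%. Each Tfrc hairpin stood in 1 of 3 protein-coding transcripts, that of Fth1 in 4 of 5, Ftl1 in 1 of 2 and Slc40a1 in 1 of 4. The other 6 members gave no match, Slc11a2 in 6 transcripts among them. The pattern allowed no bulge and no mismatch in the upper stem, so an element of another shape would be missed. No match therefore does not show that a member, Slc11a2 included, lacks an iron responsive element. A match describes the sequence and was not tested as a bound site in these libraries.

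Total counts ran from 9977694 to 14598010 per library, and the smallest member count in a library was 74 (Slc11a1, adenine 2). Some bone genes were abundant: Col1a1, the main collagen of bone matrix, had 5502 to 14838 CPM (counts scaled to library size), and Bglap (osteocalcin) 141 to 801 CPM. Others of the 12 bone genes listed were low, such as Runx2 (42.5 to 69.5 CPM) and Fgf23 (0.528 to 2.87 CPM). These 2 are named here after their values were seen. Libraries also held red cell, muscle and kidney RNA in very unequal amounts. The summed CPM of 14 tested erythroid genes was 45299, 74911 and 10348 in control 1 to 3 and 74967, 55496 and 49504 in adenine 1 to 3. The skeletal muscle list (9 tested genes) was 50896, 18844 and 81810 CPM in the controls and 2617, 68920 and 5377 CPM in the adenine libraries. In bulk RNA, fewer cells of a type and less RNA per cell cannot be told apart.

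No member passed the test for a diet difference. With edgeR's quasi-likelihood test, adjusted by Benjamini-Hochberg over all 15609 tested genes, 0 of the 10 had an adjusted p under 0.05 (their range was 0.474 to 0.998), and 0% of all tested genes did. At an unadjusted p under 0.05 edgeR counted 0 of 10, against 10.7% of all genes (4.22% higher and 6.49% lower on adenine). The DESeq2 Wald test also called 0 of 10, against 1.93% of all genes, and at its unadjusted p under 0.05 it counted 2 of 10, Hmox1 and Tfrc, against 11.6%. That 11.6% sets all genes with a p under 0.05 against only those given an adjusted p, so it can be too high. In CPM the diet groups overlapped for all 10 members, while 7.68% of tested genes had every adenine library above every control and 8.86% had every one below. Log2 fold changes were positive for 7 of 10 members, with a median of 0.29, beside 50% of all genes and a median near 0 (-3.8e-07). The members' median was 0.50 without control 2, 0.44 without adenine 2, 0.18 without control 3 and 0.093 without adenine 3. Standard errors of the members were 0.25 to 0.49, so differences of the sizes seen could not be told from the spread between libraries.

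**Figure D1:**
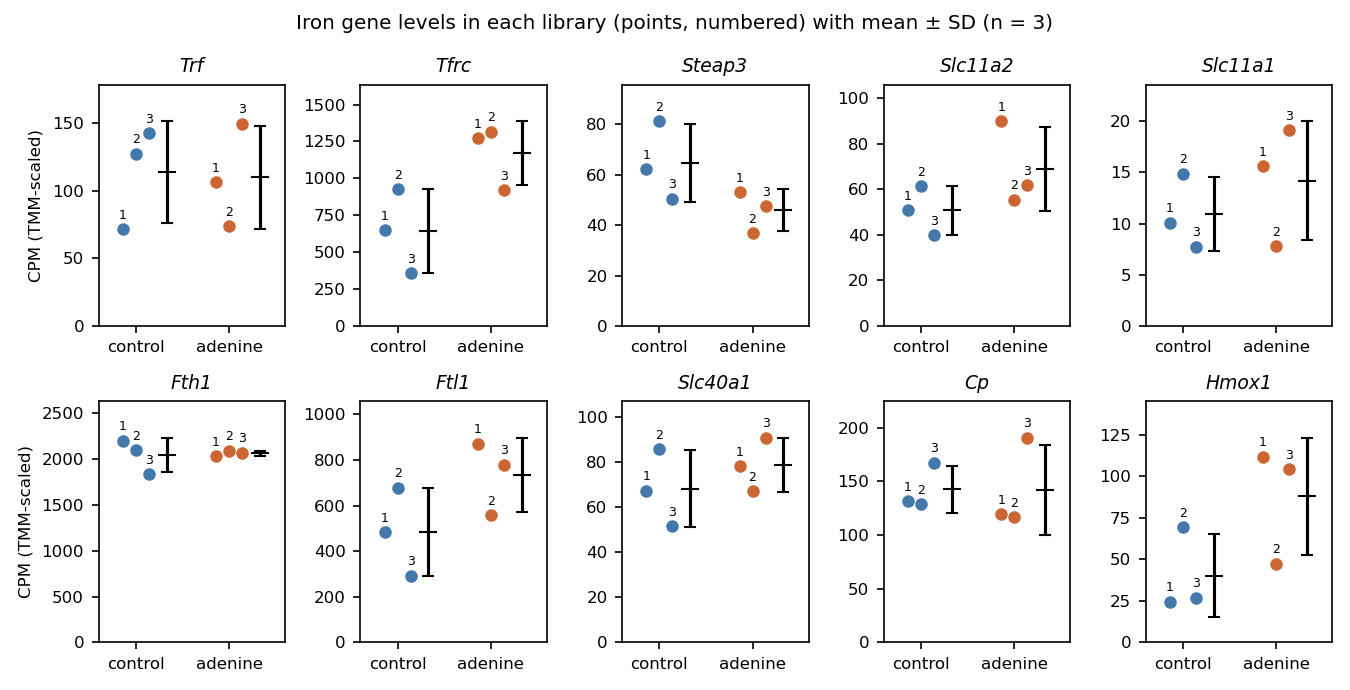
Level of each iron gene in TMM-scaled CPM (vertical axis from 0) by diet; points are the 6 libraries with their numbers, and bars give the mean ± SD (n = 3). Fth1 sits between 1834 and 2199 CPM in every library, and for each gene at least 1 library of a diet lies within the range of the other.

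Per length, ferritin chains and the transferrin receptor were the most abundant members. The mean over the 6 libraries was 565 FPKM (fragments scaled to gene length and library size) for Fth1, 438 for Ftl1 and 141 for Tfrc, which rank 66, 88 and 272 of 56748 genes. Hmox1 (35.5 FPKM) and Trf (32.3) followed, then Cp (14.2), Steap3 (9.22), Slc11a2 (9.06), Slc40a1 (7.80) and Slc11a1 (3.25). Ftl1 lay above Tfrc, Trf above Cp, and Slc40a1 above Slc11a1 without overlap of their libraries, but by narrow margins. The lowest library of the higher gene and the highest of the lower gene had 209.9 and 209.6 FPKM for Ftl1 and Tfrc. They had 19.8 and 19.3 for Trf and Cp, and 5.49 and 4.99 for Slc40a1 and Slc11a1. The ranges of all other neighbours overlapped: Fth1 was above Ftl1 in 5 of 6 libraries, Hmox1 above Trf in 4 of 6 and Steap3 above Slc11a2 in 3 of 6. The order of the ferritin chains depends on the length assigned to them. The files use 3469 bases for Fth1 and 1340 for Ftl1, whereas the Fth1-201 and Ftl1-201 transcripts of GENCODE M21 have 929 and 968 bases.

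Of the uptake genes, Tfrc (ENSMUSG00000022797, chromosome 16, 32427738 to 32451612 as the files place it) had 648, 925 and 357 CPM in control 1 to 3 and at 1272, 1316 and 921 CPM in adenine 1 to 3. Control 3 was the lowest library, and adenine 3 lay just under control 2. The means were 643 ± 284 CPM (SD, n = 3) and 1170.0 ± 216 CPM (SD, n = 3), a log2 fold change of 0.86 with a 95% interval of -0.16 to 1.88 (edgeR adjusted p = 0.519). In FPKM, which uses another library scaling, the groups did not overlap, by a narrow margin: 96.3, 140.2 and 55.4 in the controls against 209.6, 199.0 and 144.0 on adenine. Even so limma-trend on log2(FPKM + 1) gave 0.99 with an adjusted p of 0.438. Control 3 also had the lowest level of erythroid markers, -1.83 relative to the mean of the 6 libraries on the log2 scale, with Hbb-bs (beta globin) at 4900 CPM and 23051 to 37233 CPM elsewhere. The neutrophil list was lowest there too, at -2.23 against -0.40 to 0.82 in the other 5 libraries. So were the macrophage list (-0.61) and, among the members, Fth1, Ftl1, Slc40a1, Slc11a1 and Slc11a2. The part of erythroid, neutrophil and macrophage RNA in the Tfrc level was not tested. Without control 3 the log2 fold change of Tfrc was 0.59, and with the erythroid level as a covariate it was 0.57 (SE 0.31). It was 1.22 without control 2.

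Trf (ENSMUSG00000032554, chromosome 9, 103081200 to 103107643), the carrier itself, had 71.4, 127 and 143 CPM in the controls and 106, 73.9 and 149 CPM on adenine. Both diets covered the same range, and the log2 fold change was -0.05 with a 95% interval of -0.89 to 0.79 (edgeR adjusted p = 0.961). Trf and Cp are known as products of the liver. The liver gene Alb (albumin) had 0, 4 and 23 counts in the controls and 2, 8 and 0 on adenine. Of 8 liver markers listed only 1 passed the filter on low counts (Ttr, 0 to 88 counts), while Trf had 704 to 1991 counts.

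Steap3 (ENSMUSG00000026389, chromosome 1, 120118487 to 120200435) had a negative log2 fold change as well. Its values were 62.2, 81.2 and 50.5 CPM in the controls and 53.1, 36.7 and 47.6 CPM on adenine, so that only adenine 1 lay above any control library. Its log2 fold change was -0.50 with a 95% interval of -1.09 to 0.10 (edgeR adjusted p = 0.524). It stayed negative under all 17 alternatives, from -0.30 (without control 2) to -0.95, and its adjusted p was 0.382 to 0.921 in them. With a marker level as a covariate it was -0.68 (erythroid), -0.95 (macrophage) and -0.81 (muscle), at unadjusted p of 0.0151, 0.0394 and 0.00725 in edgeR.

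Slc11a2 (ENSMUSG00000023030, chromosome 15, 100285779 to 100322953) had 50.8, 61.4 and 39.9 CPM in the controls and 89.7, 55.3 and 61.6 CPM on adenine. Adenine 1 stood above the rest, adenine 2 lay within the control range and adenine 3 just above it. The log2 fold change was 0.44 with a 95% interval of -0.18 to 1.07 (edgeR adjusted p = 0.574), and 0.21 without adenine 1. That library also held the most kidney tubule RNA: the 10 tubule markers summed to 1949 CPM there, 826 in adenine 2 and 50.4 to 257 in the other 4. The part of tubule RNA in the Slc11a2 level was not tested.

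Slc11a1 (ENSMUSG00000026177, chromosome 1, 74414354 to 74425221), the phagosomal carrier, had 10.1, 14.9 and 7.75 CPM in the controls and 15.6, 7.77 and 19.1 CPM on adenine. Adenine 2 lay next to the lowest control, and the log2 fold change of 0.38 had a 95% interval of -0.58 to 1.34 (edgeR adjusted p = 0.723). It was 0.67 without control 2 or without adenine 2, 0.20 without control 3 and 0.099 without adenine 3. Adenine 2 was also the adenine library with the least macrophage RNA, at 841 CPM summed over 12 tested markers against 2158 and 2980 CPM in adenine 1 and 3. The controls had 793, 1411 and 537 CPM.

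The storage genes differed from each other in how steady they were. Fth1 (ENSMUSG00000024661, chromosome 19, 9957962 to 9962462) had 2199, 2096 and 1834 CPM in the controls and 2033, 2089 and 2068 CPM on adenine. The highest library exceeded the lowest 1.20-fold, the smallest such ratio among the 10 members. Its log2 fold change was 0.014 with a 95% interval of -0.84 to 0.87 (edgeR adjusted p = 0.989), an interval widened by edgeR's use of the spread of all genes. Ftl1 (ENSMUSG00000050708, chromosome 7, 45107368 to 45109308) had 482, 678 and 293 CPM in the controls and 871, 556 and 778 CPM on adenine, a 2.97-fold range. Adenine 2 lay below control 2, and the log2 fold change of 0.60 had a 95% interval of -0.34 to 1.54 (edgeR adjusted p = 0.599). Ftl1 was 0.36 without control 3 and 0.92 without control 2.

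Reads of Ftl1 can be shared with near-identical copies, and the handling of such reads is not stated. Ftl1-ps1 on chromosome 13 held 1014 counts over the 6 libraries, 2.34% of the 43382 of Ftl1. Ftl2-ps held 14, and Fth-ps2 held 4 beside the 148075 of Fth1.

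The ratio of heavy to light ferritin chain transcripts, from FPKM, was 1.76, 1.19 and 2.42 in the controls and 0.902, 1.45 and 1.03 on adenine. Adenine 1 had the lowest ratio, and adenine 2 lay within the control range. The level of this ratio scales with the gene lengths assigned, while the log2 difference between diets was the same in CPM. The means were 1.79 ± 0.613 and 1.13 ± 0.287 (SD, n = 3 each), a log2 difference of -0.64 (exact two-sided permutation test, p = 0.2, where 0.1 is the smallest possible). It was -0.39 without control 3 and -0.90 without control 2. The ratio of Tfrc to Fth1 was 0.165, 0.247 and 0.109 in the controls and 0.351, 0.353 and 0.250 on adenine. Here every adenine library was above every control, though adenine 3 exceeded control 2 only slightly. The log2 difference was 0.93 (exact two-sided permutation test, p = 0.1, the smallest possible). It was 0.64 without control 3 and 1.23 without control 2. Fth1 varied little, so this ratio largely repeats Tfrc, whose FPKM groups did not overlap either.

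**Figure D2:**
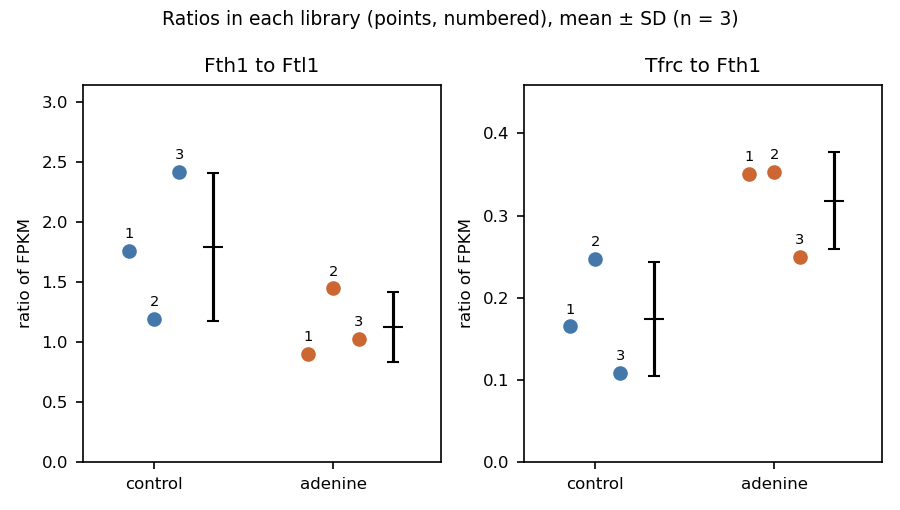
Ratio of FPKM (vertical axis from 0) of Fth1 to Ftl1 and of Tfrc to Fth1 by diet, with numbered points for the 6 libraries and mean ± SD (n = 3). The Tfrc to Fth1 ratio runs from 0.109 to 0.247 in the controls and from 0.250 to 0.353 on adenine, while the Fth1 to Ftl1 ratios overlap.

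Of the export genes, Slc40a1 (ENSMUSG00000025993, chromosome 1, 45947228 to 45965683) had 67.3, 85.7 and 51.5 CPM in the controls and 78.0, 67.0 and 90.7 CPM on adenine. The groups lay over each other, with a log2 fold change of 0.21 and a 95% interval of -0.39 to 0.80 (edgeR adjusted p = 0.755). It was 0.40 without control 2, 0.051 without control 3 and 0.086 without adenine 3. Cp (ENSMUSG00000003617, chromosome 3, 20011218 to 20063309) had 131, 129 and 167 CPM in the controls and 120, 117 and 191 CPM on adenine. Control 3 and adenine 3 were the highest of their diets, and the log2 fold change was -0.0025 with a 95% interval of -0.66 to 0.65 (edgeR adjusted p = 0.998). Cp overlaps Hps3 on the opposite strand, with 10445 and 1895 counts in all, and no source used here gives the strand setting of the counting.

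Hmox1 (ENSMUSG00000005413, chromosome 8, 75820249 to 75827217) had the largest fold change and the widest range of the members, 4.54-fold. It was measured at 24.6, 69.3 and 26.8 CPM in the controls and at 112, 47.4 and 105 CPM on adenine. Control 2 lay above adenine 2, and the other 2 libraries of each diet stood well apart. Mean levels were 40.3 ± 25.2 CPM and 87.9 ± 35.3 CPM (SD, n = 3 per diet). The log2 fold change of 1.13 had a 95% interval of -0.02 to 2.28 (edgeR adjusted p = 0.474, unadjusted p = 0.0529). The authors' deposited table gives 1.14 with an adjusted p of 0.320 for Hmox1, and 0.87 with 0.344 for Tfrc. Without control 2 the log2 fold change of Hmox1 was 1.77 and without adenine 2 it was 1.44, with adjusted p of 0.123 and above under every alternative.

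Macrophage and muscle levels were set beside Hmox1. Of the macrophage list 12 of 12 tested genes had positive log2 fold changes, with a median of 0.88, of which 0 passed in edgeR (8 at an unadjusted p under 0.05) and 2 in the DESeq2 Wald test. In summed CPM, most of it Lyz2, the diets overlapped. Mean log2 levels of the list relative to the 6 libraries were -0.46, -0.27 and -0.61 in the controls and 0.53, -0.17 and 0.98 on adenine, so that adenine 2 was closest to the controls there too. The muscle level was lowest in adenine 1 and 3 (-2.94 and -1.96), where Hmox1 was highest. With the macrophage level as a covariate the log2 fold change of Hmox1 was -0.10 (SE 0.58), and with the muscle level 0.36 (SE 0.30). The macrophage level of every adenine library lay above that of every control, so the macrophage fits cannot tell this level and diet apart. The part of macrophage and muscle RNA in the Hmox1 level was not tested. Ftl1, Slc40a1 and Slc11a1 also turned negative with the macrophage covariate (-0.02, -0.25 and -0.83), whereas Tfrc had 0.91 (SE 0.63). Osteoclast markers did not overlap between the diets, at 2002 to 2111 CPM in sum in the controls and 4323 to 7579 CPM on adenine, and their part in the members' levels was not tested.

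**Figure D3:**
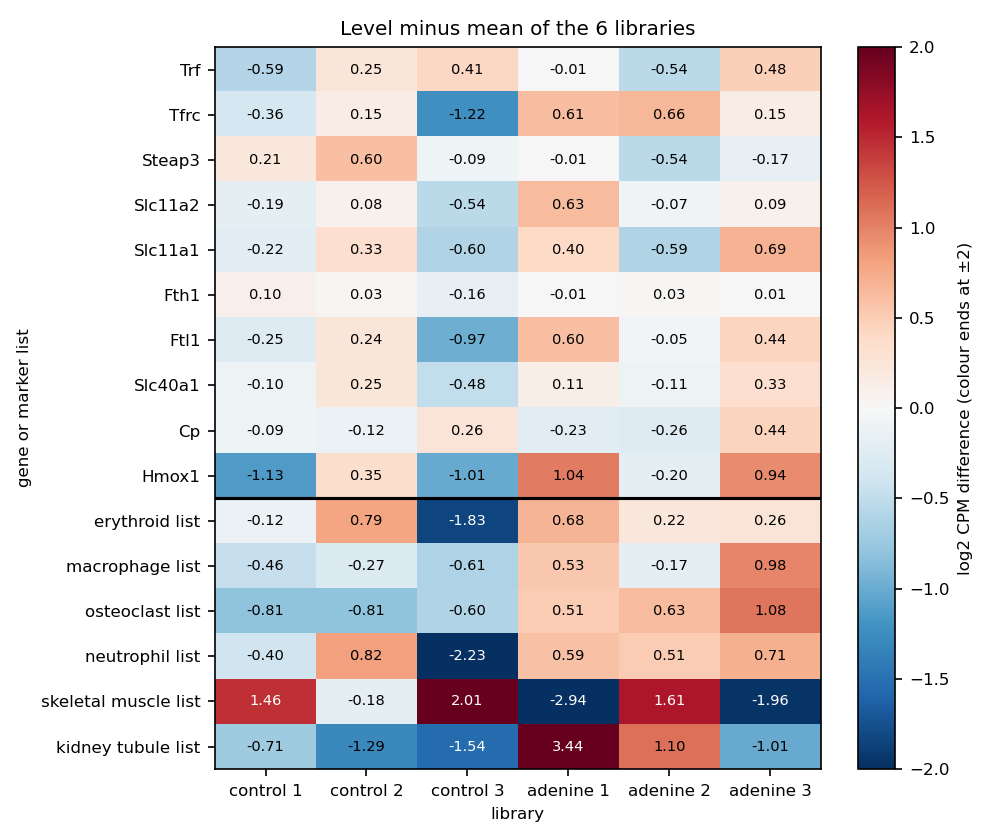
Levels of the 10 genes (upper rows, log2 CPM) and of 6 marker lists (lower rows, mean log2 CPM of the list) in each library (columns), each minus its mean over the 6 libraries; numbers give the difference and colours end at ±2. Control 3 holds the lowest value of Tfrc (-1.22), Ftl1 (-0.97), Slc11a1 (-0.60), Slc11a2 (-0.54), Slc40a1 (-0.48) and Fth1 (-0.16). It also holds that of the neutrophil (-2.23), erythroid (-1.83) and macrophage (-0.61) lists. Fth1 stays within 0.16 of its mean.

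**Figure D4:**
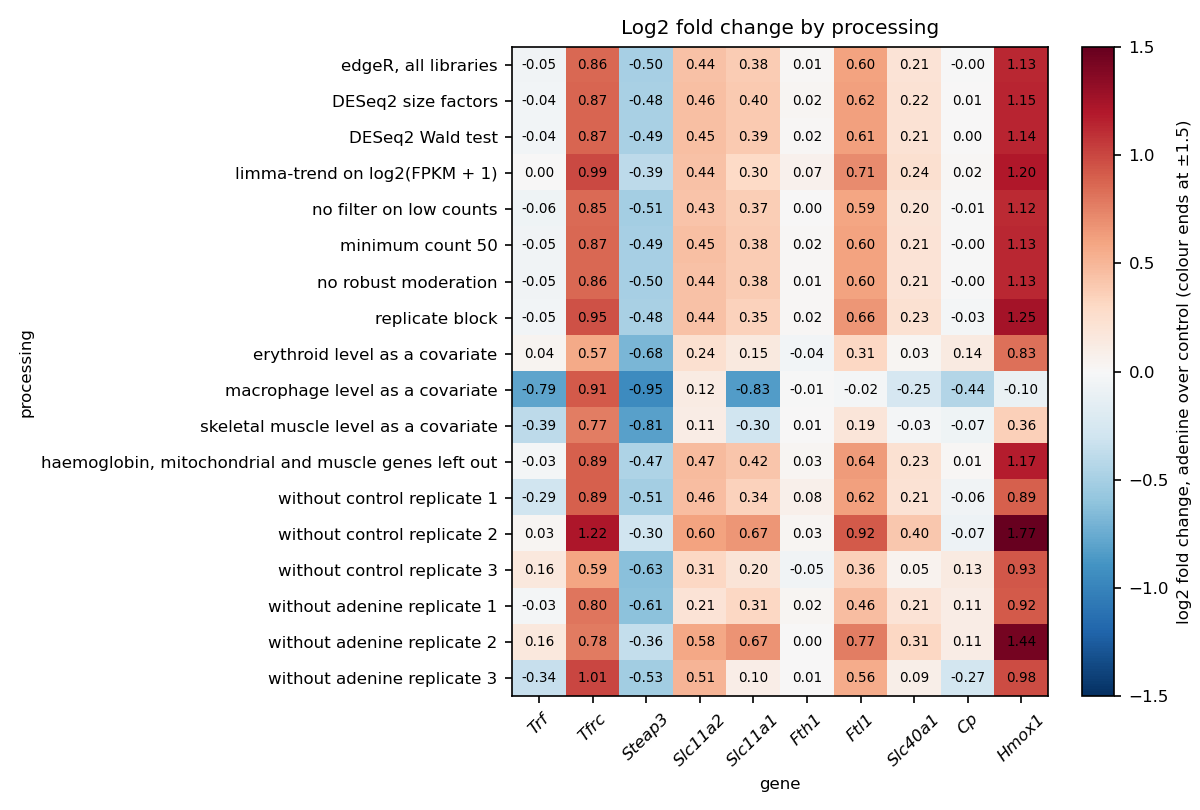
Log2 fold change (adenine over control; numbers, with colours ending at ±1.5) of the 10 genes (columns) in the edgeR test with all libraries (top row) and under 17 alternatives (other rows). Tfrc runs from 0.57 to 1.22 and Steap3 from -0.95 to -0.30, and Hmox1 is 1.77 without control 2 and -0.10 with the macrophage level as a covariate.

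The genes whose profile over the 6 libraries lay nearest were sought among 11782 other protein-coding genes with at least 1 FPKM, by the root mean square distance of centred log2 CPM. For Tfrc they included Kmt5c and Slc20a1, at distances of 0.081 and 0.098. Slc20a1, a phosphate transporter, had 74.1, 126 and 48.3 CPM in the controls and 154, 158 and 109 CPM on adenine. For Slc40a1 they were Nup93, Dbnl and Rapgef6 (0.038, 0.043 and 0.044), and for Trf they were Rpp38, Polr3a and Zfp119b (0.094 to 0.13). Hmox1 had no neighbour as close: Cracr2a, Sla and Gpr132 lay at 0.16. With 6 libraries such likeness is a description only.

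Of 77 other iron genes in 7 lists, 69 were tested and 0 passed in edgeR or in the DESeq2 Wald test, while 2 had an unadjusted p under 0.05 in edgeR, against 10.7% of all genes. Log2 fold changes were positive for 43 of the 69, against 50% of all genes, with a median of 0.26. Some genes named below, picked by smallest p, did not overlap between the diets in CPM. Over all tested genes 7.68% had every adenine library above every control and 8.86% had every one below. Hepcidin (Hamp, Hamp2) was listed, but neither gene was found by name in the deposited comparison, so neither was tested.

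Haem synthesis genes had positive log2 fold changes in 12 of 13 cases, with a median of 0.43 and 0 passing. Alas2, the erythroid enzyme of the rate-limiting step, had 1016, 1836 and 305 CPM in the controls and 1911, 1563 and 1097 CPM on adenine, and control 3 was low as for Tfrc. It is named here after its values were seen. The list's level followed the erythroid markers, at -0.10, 0.44 and -1.16 in the controls and 0.48, 0.28 and 0.05 on adenine. Alas2 belongs to both lists, so part of this likeness is built in. Slc25a28 (mitoferrin 2), which brings iron into mitochondria, had the smallest p of the list. Its values were 42.4, 40.1 and 42.2 CPM in the controls and 54.0, 64.2 and 50.8 CPM on adenine, with no overlap (log2 fold change 0.44, edgeR adjusted p = 0.477). Slc25a37 (mitoferrin 1), its erythroid relative, was spread from 346 to 1553 CPM over the libraries and is named here after its values were seen.

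In the hepcidin regulators 7 of 9 tested genes had negative log2 fold changes, with a median of -0.76 and 0 passing in edgeR. Bmp2, a ligand that induces hepcidin in liver, had 19.3, 18.0 and 27.3 CPM in the controls and 13.6, 10.5 and 10.2 CPM on adenine, without overlap (log2 fold change -0.92, edgeR adjusted p = 0.340, unadjusted p = 0.0111). Neo1, Bmp6 and Acvr1 had -0.75, -0.80 and -0.76. Endothelial markers were lower on adenine beside them, at 776 to 996 CPM in sum in the controls and 351 to 541 CPM on adenine. Of these markers 8 of 8 had negative log2 fold changes (median -1.15). In edgeR 0 of them passed (8 at an unadjusted p under 0.05) and 5 in the DESeq2 Wald test, and their part in the list was not tested. For Neo1 and Acvr1 adenine 2 lay above control 2 (67.1 against 57.1 and 23.5 against 19.2 CPM), as in the muscle list. For Bmp6 adenine 2, its highest adenine library, lay just under control 2, its lowest control (19.84 against 19.99 CPM). For Bmp2 adenine 2 lay well below control 2 (10.5 against 18.0 CPM). The part of muscle RNA was not tested either. Hjv (hemojuvelin, a BMP co-receptor also made in muscle) had 424, 170 and 540 CPM in the controls and 18.5, 403 and 38.3 CPM on adenine, high and low in the same libraries as the muscle markers. It was the iron gene that passed in an alternative, with a log2 fold change of -3.76 (edgeR adjusted p = 0.0430) without adenine 2, a fit in which both adenine libraries have a low muscle level. Hjv was chosen for mention after its values were seen.

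Among the other uptake genes 8 of 13 were positive with a median of 0.26 and 0 passing. Scara5, a receptor for ferritin, had 10.3, 16.6 and 41.1 CPM in the controls and 3.79, 9.13 and 5.03 CPM on adenine. Every adenine library lay below every control, with a log2 fold change of -1.92 and an SE of 0.58 (edgeR adjusted p = 0.342, unadjusted p = 0.0114). The DESeq2 Wald test gave an adjusted p of 0.0518, just over the threshold. Markers of Schwann cells and fat cells, were also lower on adenine in their summed CPM: 322, 809 and 737 against 94.8, 111 and 135 for Schwann cells, and 562, 566 and 897 against 275, 438 and 257 for fat cells. Their part in the Scara5 level was not tested.

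The iron sensors gave small values. Ireb2 had 64.1, 69.5 and 66.1 CPM in the controls and 80.8, 97.8 and 76.4 CPM on adenine, without overlap (log2 fold change 0.35, edgeR adjusted p = 0.559), and Aco1 had 0.26. Of the 8 tested genes of iron sensing, ferritin turnover and chaperones, 5 were positive, with a median of 0.03 and 0 passing. Haem recycling genes were positive in 8 of 11 cases (median 0.31, 0 passing), among them the haptoglobin gene Hp at 0.74 and the haem exporter Flvcr1 at 0.31. Of the 4 tested export partners 1 was positive (median -0.37, 0 passing), namely Heph, the membrane-bound ferroxidase, at 0.36. Iron-sulfur cluster assembly genes were positive in 7 of 11 cases (median 0.05, 0 passing), with Bola3 at -0.38 and Glrx5 at 0.50.

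**Figure D5:**
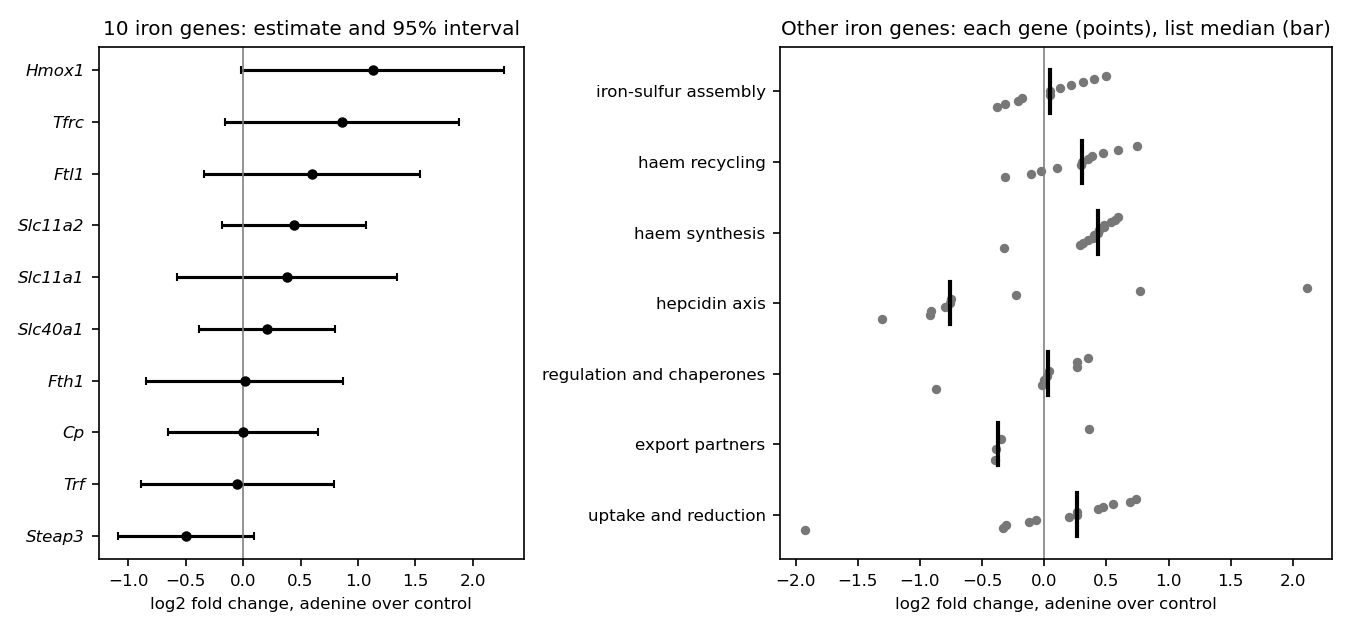
Left, log2 fold change (adenine over control, horizontal axis) of each of the 10 genes with its 95% interval; every interval includes 0. Right, log2 fold changes of the tested genes of the 7 other iron lists (points) with the list median (bar), from -0.76 for the hepcidin axis to 0.43 for haem synthesis.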

How the data were processed

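PolyA RNA of flushed, pulverised tibial cortex was sequenced, per the labels' protocols. HISAT2 2.0.5, featureCounts 1.5.0-p3, edgeR 3.22.5 and DESeq2 are listed in the submitters' processing notes, without their order or role. Build, annotation and strand setting were not given in the sources used here. The authors deposited raw counts per gene and library, a normalized signal (counts divided by a size factor of 0.825 to 1.20, as tested on the values), FPKM, and the log2 fold changes and p-values of their comparison. Gene coordinates are those of the files, and hairpin coordinates are those of GRCm38. Every hairpin lies outside the interval printed for its gene. The files therefore use a build other than GRCm38, and the gene and hairpin coordinates cannot be compared.

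Diets were compared on the deposited counts by a quasi-likelihood test (edgeR 4.0.16 in R 4.3.3, TMM scaling, robust, two-sided, no covariate). Of all genes 15609 passed filterByExpr at a minimum of 10 counts, and p-values were adjusted over them by the Benjamini-Hochberg method at 0.05. Standard errors are the absolute log2 fold change over the square root of F, and 95% intervals use the test's degrees of freedom. CPM are TMM-scaled. List levels are means of log2 CPM (prior count 2) and were not tested. Ratios were tested by exact permutation, where 3 against 3 allows no p under 0.1.

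Simulated counts with the dispersions of these libraries (15180 genes) were used to test the scripts. A 2-fold change was recovered for 1% of genes by edgeR and 13% by DESeq2, and a 4-fold change for 37% and 82%. Of 100 genes changed at each size these were the shares called in the right direction. Among genes simulated without a change, edgeR called 2 and DESeq2 57.

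Members and lists were chosen with earlier results of these data known. Beside the members, the rule named up to 4 genes per iron list by smallest p, the leading 3 of each marker list, and the 3 nearest profiles of 4 members, of which 1 is not reported here. Other settings tried were the size factors and the Wald test of DESeq2 1.42.0, limma-trend (limma 3.58.1) on log2(FPKM + 1) for genes of at least 1 FPKM, no filter, a minimum of 50 counts, no robust moderation, the replicate number as a block, 3 marker levels as covariates, abundant genes left out, and each library left out.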

Additional observations from a re-analysis of the deposited data

How the results depend on the processing

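No member passed at an adjusted p of 0.05 in any of 170 combinations of 10 members and 17 alternatives. Tfrc, Slc11a2 and Steap3 kept their sign in all 17. The count of members at an unadjusted p under 0.05, 0 in the main fit, was 2 by the DESeq2 Wald test and 1 with limma-trend, each of the 3 covariates, or abundant genes left out, and 0 to 2 with 1 library left out. Over all genes that count was 2175 by the Wald test, beside 18691 genes with an adjusted p. Some of the 2175 may lack an adjusted p. With limma-trend it was 1465 of 13391. It was 1085, 821 and 1154 of 15609 with the erythroid, macrophage and muscle covariates, and 1696 of 15639 with abundant genes left out. With 1 library left out it ran from 981 of 16378 (without adenine 1) to 3243 of 16470 (without adenine 2). Without control 2, where 2 members were counted, it was 2906 of 16432. The members' median was -0.17 with the macrophage covariate. Values near 0 changed sign: Cp was 0.0070 with DESeq2 size factors, 0.0029 by the Wald test, 0.021 by limma, 0.14 with the erythroid covariate and 0.013 with abundant genes left out; Trf was 0.0033 by limma and 0.042 with the erythroid covariate; Fth1 was -0.044 with the erythroid and -0.0083 with the macrophage covariate. With the macrophage covariate Ftl1 was -0.024, Slc40a1 -0.25, Slc11a1 -0.83 and Hmox1 -0.10, and with the muscle covariate Slc40a1 was -0.031 and Slc11a1 -0.30; the cause was not tested. With 1 library left out, Cp ran from -0.27 to 0.13, Trf from -0.34 to 0.16 and Fth1 from -0.049 to 0.081. The count of other iron genes called was 0 to 1 with 1 library left out. The liver marker level, which rests on 1 tested gene, differed by 5.44 with a prior count of 0.1.

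The labels number both diets 1 to 3 without saying that the numbers pair samples, and same-numbered libraries did not deviate together (correlations of -0.039, -0.45 and -0.17 over genes). With the replicate number as a block, Tfrc had 0.95 and Hmox1 1.25 (edgeR adjusted p = 0.723 for both), and 0 members passed. Counts of all genes called by edgeR were 0 in the main fit, 66 with no filter and 334 without adenine 2. The members' median ran from 0.093 to 0.50 with 1 library left out. At these dispersions edgeR recovered 1% and DESeq2 13% of simulated 2-fold changes over all genes, and they falsely called 2 and 57 unchanged genes.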
